A study of Arabidopsis thaliana with 4 samples.

Results

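LBD16, LBD17, LBD18, LBD29 and LBD33 encode plant transcription factors of the LATERAL ORGAN BOUNDARIES DOMAIN (LBD) family. The 5 genes were chosen by locus identifier, and they are 5 of the 2773 genes that the deposited lists hold together. RNA had been sequenced from leaf explants of Arabidopsis thaliana in 4 groups of 1 library each: Col-0, the wild type, before culture (day 0) and after 4 days on callus inducing medium (day 4), and lbd16-2, labelled as a mutant of LBD16, on the same days. All explants were leaves of the first pair, from plants aged 12 days that had grown at 22 °C with 16 h of light and 8 h of dark a day, and culture was in continuous darkness at the same temperature. The groups held 1 mutant allele, with no complemented line.

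LBD genes act early on the path from auxin to new organs. In the root, auxin removes Aux/IAA repressors such as IAA14 from the auxin response factors ARF7 and ARF19, which then activate LBD16, LBD18 and LBD29. LBD proteins in turn activate cell cycle and cell wall genes, and LBD18 forms a dimer with LBD33. Callus on auxin-rich medium arises along a similar path, and overexpression of LBD16, LBD17, LBD18 or LBD29 is known to give callus without added hormone.

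The family is defined by a block of 4 cysteines near the start of the protein, in the spacing C-x2-C-x6-C-x3-C, which is thought to bind DNA. The 45 coding bases of this block, read from RefSeq's TAIR10.1 genome and annotation, are shown because they mark the 5 genes as relatives and let their divergence be seen. Capitals mark the cysteine codons.
LBD16, chr2:17663713-17663757, plus strand: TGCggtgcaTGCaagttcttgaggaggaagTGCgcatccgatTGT
LBD17, chr2:17669685-17669729, minus strand: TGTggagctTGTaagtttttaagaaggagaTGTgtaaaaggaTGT
LBD18, chr2:18718712-18718756, plus strand: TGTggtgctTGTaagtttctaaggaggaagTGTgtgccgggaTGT
LBD29, chr3:21549411-21549455, minus strand: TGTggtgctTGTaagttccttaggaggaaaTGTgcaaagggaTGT
LBD33, chr5:1831362-1831406, minus strand: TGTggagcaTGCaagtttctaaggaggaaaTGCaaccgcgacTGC
Each block was uninterrupted by an intron. LBD18 and LBD29 differed at 7 of the 45 bases, the fewest of the 10 pairs, and LBD16 and LBD17 differed at 16, the most. Over the whole coding sequence LBD17 and LBD29 were the closest pair, with 80.6% identity over 638 aligned bases, against 61.8% to 73.0% for the other 9 pairs. The longest run of identical bases that any of the 5 transcripts shared with another LBD family transcript (41 compared with each) was 17 to 21 bases. No other annotated gene overlapped any of the 5.

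Levels are given as normalised reads, which are reads divided by the library's size factor (between 1.08 and 1.68). Each deposited list holds genes whose log2 fold from day 0 to day 4 exceeded 3, so genes with smaller or opposite changes were left out of the tables. Every group had a single library, so no value has a replicate check and conditions were not tested against each other. Values in parentheses after a ratio or fold are 95% intervals of counting error, which compare 2 libraries. The root stem cell markers WOX5, PLT1, PLT2 and BBM were in both lists (4 of 4). These lists hold 8.91% (Col-0) and 9.18% (lbd16-2) of the genes tested. The markers had 0 to 2.78 normalised reads in any day 0 library. All 4 were lower in lbd16-2 than in Col-0 at day 4, with ratios from 0.207 to 0.608. At day 4, 58.3% of the 2175 genes with levels in all 4 libraries were lower, and 50.5% of the 1657 genes of both lists. Of 7 photosynthetic leaf markers 0 were listed, so the leaf label could not be checked with lists of increased genes. In RNA from whole explants, fewer cells that express a gene and less RNA per cell cannot be told apart.

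All 5 genes were in both lists, over 8-fold higher after culture in Col-0 and in lbd16-2, although the direction flipped for LBD16 in both genotypes and for LBD33 in Col-0 when libraries were centred on the listed genes, themselves chosen for being higher. The lists hold 8.91% of the 24442 genes tested in Col-0 and 9.18% of the 24518 tested in lbd16-2. The 5 were picked from genes that these lists hold, so being listed is not a result about them. With a log2 limit of 4, 5 of the 5 passed in Col-0 and 4, all but LBD16, in lbd16-2, where 65.1% and 60.6% of listed genes passed. Before culture LBD17, LBD29 and LBD33 had at most 1 read in any library, while LBD16 and LBD18 already had some. Such low counts, at most 3 reads in both day 0 libraries, were found in 46.3% of the 2175 genes with levels in all 4 libraries.

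**Figure D1:**
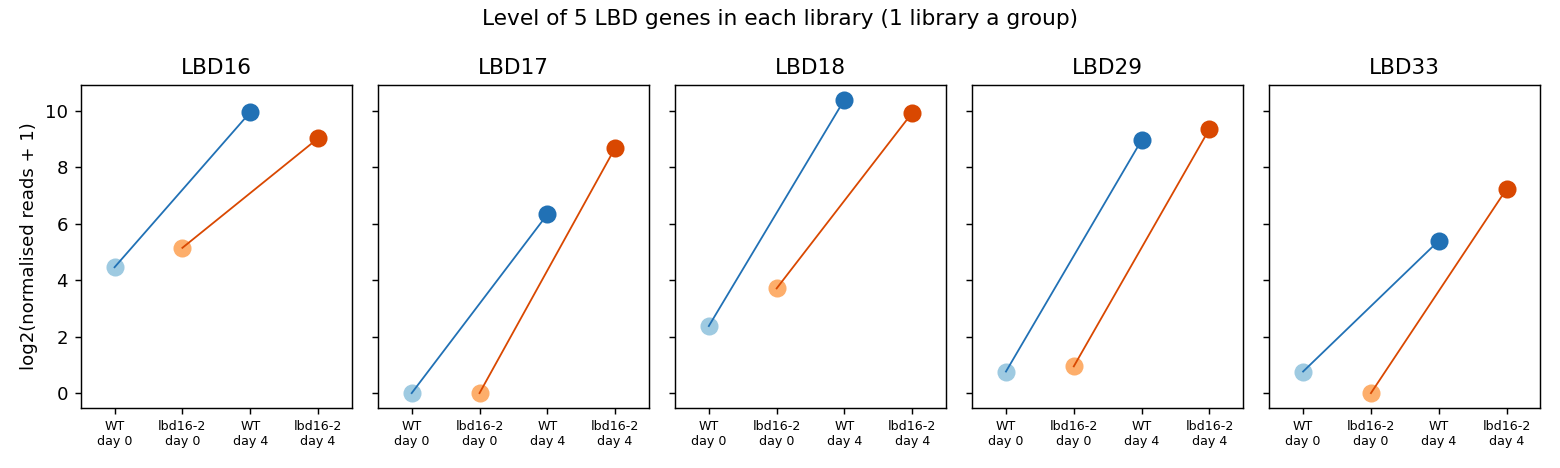
Level of each of the 5 genes in each library, as log2(normalised reads + 1) on the vertical axis, with 1 panel a gene and 1 point a library (1 library a group, so no error bars). Lines join day 0 and day 4 of a genotype, and every day 4 point lies above both day 0 points of its gene. The orange lbd16-2 point at day 4 lies below the blue Col-0 point (marked WT) for LBD16 and LBD18 and above it for LBD17, LBD29 and LBD33.

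LBD16 (AT2G42430), the gene named by the mutant allele, was read in every library. Its level before culture was 20.9 normalised reads in Col-0 and 34.3 in lbd16-2, and after culture it was 981 in Col-0 and 518 in lbd16-2. The lbd16-2 library was thus the higher one at first and the lower one later. Before culture the ratio of lbd16-2 to Col-0 was 1.64 (0.986 to 2.75), from 37 and 30 reads. This exact interval holds 1, while the interval of the log2 ratio with 0.5 reads added, 0.02 to 1.40 around 0.71, excludes 0, so the difference lies at the edge of counting error. Of the 558 genes with levels in all 4 libraries and a mean level before culture of at least 20 normalised reads, 82.3% were higher in lbd16-2. The median log2 ratio before culture was 0.47 over the 376 genes of both lists with that level, whereas over all 1657 genes of both lists the median log2 level in lbd16-2 minus that in Col-0 was -0.12. LBD16's log2 ratio before culture moved with the scaling, to 0.07 with the same sum of reads in each library and to 0.82 with libraries centred on the 1657 genes.

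After culture the LBD16 ratio was 0.528 (0.484 to 0.575), from 871 and 1387 reads. LBD16 stood 46.9-fold (32.7 to 69.8) over its starting level in Col-0 and 15.1-fold (10.9 to 21.6) in lbd16-2. The log2 fold in lbd16-2 minus that in Col-0 was -1.63 (-2.33 to -0.93), or -0.97 with the same sum of reads and -1.67 with centred libraries. Of the 2175 genes, 28.0% had a difference at or below that of LBD16 and 42.0% had one under -1. The 2175 include genes of the Col-0 list alone, which by the list limit rose less in lbd16-2, but not the lbd16-2 list alone. Every share and median of this difference given here therefore leans towards negative values. For this difference no share over the 1657 genes of both lists, to which LBD16 belongs, is given. Summed reads do not show which bases of a transcript they cover, so they do not check the allele.

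LBD18 (AT2G45420), which promotes lateral root emergence and activates expansin genes, had the highest level of the 5 after culture. In Col-0 it went from 4.19 to 1340.1 normalised reads, and in lbd16-2 from 12.1 to 972. As for LBD16, lbd16-2 was the higher library before culture and the lower one after it. The ratio was 2.88 (1.02 to 9.24) before, from 13 and 6 reads, and 0.725 (0.678 to 0.775) after. The log2 ratio before culture, 1.47, was 0.83 with the same sum of reads and 1.58 with centred libraries. The fold reached 320.1 (147 to 873) in Col-0 against 80.6 (47.0 to 152) in lbd16-2, and the difference of log2 folds was -1.93 (-3.28 to -0.58), at or below which lay 23.1% of the 2175 genes. With the same sum of reads the difference was -1.27, and with centred libraries -1.97. LBD16 and LBD18 were the 2 of the 5 whose interval for this difference lay wholly below 0, as it did for 23.8% of the 2175 genes, whose median difference was -0.72. LBD17, LBD29 and LBD33 had at most 1 read in any library before culture, so their intervals for this difference were wide.

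LBD29 (AT3G58190), an activator of lateral root formation like LBD16, had 1 read in each library before culture, or 0.698 normalised reads in Col-0 and 0.928 in lbd16-2. After culture it had 495 in Col-0 and 651 in lbd16-2, a ratio of 1.31 (1.19 to 1.45). It was thus higher in lbd16-2, by less than 2-fold. Its fold was 709.9 (127.0 to 28079.6) in Col-0 and 702 (126 to 27745) in lbd16-2. A single read at the start leaves these folds too wide to compare.

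LBD17 (AT2G42440) and LBD33 (AT5G06080), the partner of LBD18, had the largest ratios of the 5 after culture, and both were higher in lbd16-2. LBD17 had 0 reads in both libraries before culture, which allows up to 2.09 normalised reads in Col-0 and 2.78 in lbd16-2 (3 reads). After culture it had 79.2 in Col-0 and 409.6 in lbd16-2, at least 37.9-fold and at least 147-fold over that limit. LBD33 went from 0.698 (1 read) to 41.0 normalised reads in Col-0, and from 0 to 149 in lbd16-2, there at least 53.4-fold over the limit. After culture the ratio of lbd16-2 to Col-0 was 5.17 (4.23 to 6.37) for LBD17, from 689 and 112 reads. For LBD33 it was 3.62 (2.71 to 4.91), from 250 and 58 reads. The difference of log2 folds was 1.95 (-3.71 to 7.62) for LBD17 and 3.02 (-1.61 to 7.66) for LBD33, and a difference over 1 was found for 14.1% of the 2175 genes. The 2 libraries therefore stood apart after culture, while a difference between the folds was not detectable at this depth.

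Over the 5 genes, 3 were higher and 2 lower in lbd16-2 after culture, and all 5 counting intervals excluded 1, as did those of 74.5% of the 2175 genes. Among the 2175 genes 58.3% were lower, and among the 1657 genes of both lists, to which all 5 belong, 50.5%. A ratio over 2-fold higher was found for 2 of the 5, LBD17 and LBD33, and for 11.0% of the 2175 genes. A ratio over 2-fold lower was found for 0 of the 5 and for 23.8% of the 2175. The 2175 genes include the Col-0 list alone but not the lbd16-2 list alone, and over the 1657 genes of both lists the shares were 14.0% higher and 18.0% lower, a comparison added after the values were seen. LBD17 and LBD33 also passed 3-fold, as did 5.89% of the 2175 and 7.72% of the 1657. By this ratio 48 of the 2175 genes stood above LBD17, 89 above LBD33, 549 above LBD29 and 1314 above LBD18, and 561 stood below LBD16.

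**Figure D2:**
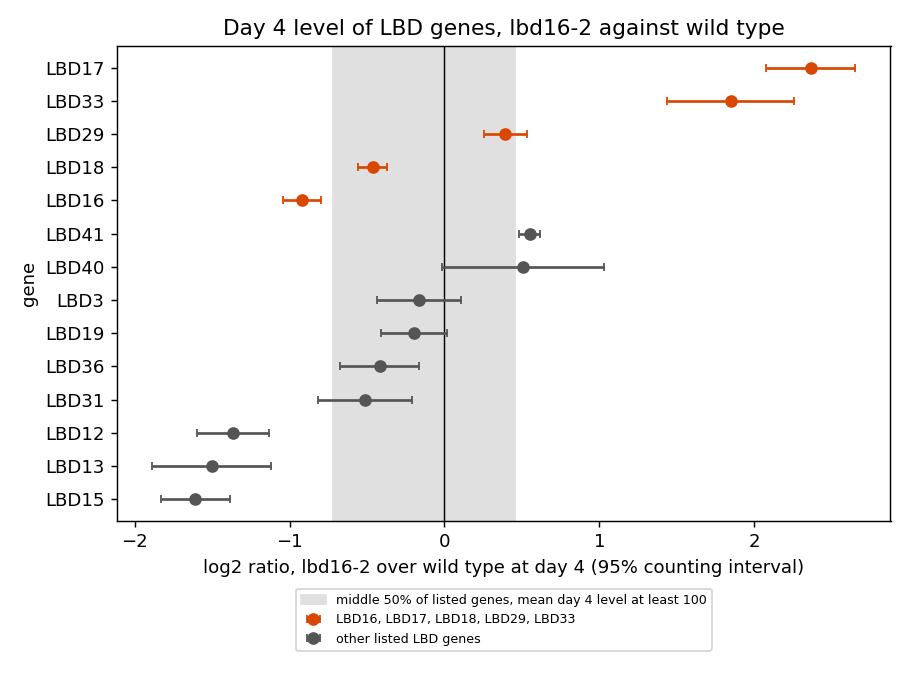
Log2 ratio of the day 4 level in lbd16-2 to that in Col-0 wild type (horizontal axis) for the 14 LBD family genes with levels in all 4 libraries, with 95% counting intervals as bars. The grey band is the middle 50% of 1301 genes with a mean day 4 level of at least 100 normalised reads, from -0.72 to 0.45, and LBD17 (2.36), LBD33 (1.85), LBD41 (0.55) and LBD40 (0.50) lie to its right, LBD29 (0.39) and LBD18 (-0.46) inside it, and LBD16 (-0.92), LBD12, LBD13 and LBD15 to its left. LBD13, LBD33 and LBD40 had mean day 4 levels below 100 normalised reads themselves. The 1301 genes include genes of the Col-0 list alone but none of the lbd16-2 list alone.

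Levels of different genes were compared per kilobase of transcript. LBD18 led after culture in both genotypes, and the order below it differed. In Col-0 the order was LBD18 (1011 normalised reads per kilobase), LBD16 (793), LBD29 (509), LBD17 (78.6) and LBD33 (58.7). LBD17 and LBD33 did not differ there beyond counting error, with a ratio of 1.34 (0.967 to 1.87). In lbd16-2 the order was LBD18 (733), LBD29 (669), LBD16 (419), LBD17 (406) and LBD33 (213). LBD16 and LBD17 were not separable there, with a ratio of 1.03 (0.931 to 1.14).

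The composition of the 5 genes' summed level per kilobase therefore differed between the libraries. LBD16 made up 32.4% of it in Col-0 and 17.2% in lbd16-2, LBD18 41.2% and 30.0%, and LBD29 20.8% and 27.4%. LBD17 made up 3.21% in Col-0 and 16.7% in lbd16-2, and LBD33 2.40% and 8.72%. The summed level per kilobase was close, 2450.4 in Col-0 and 2439.7 in lbd16-2. Without division by length the 5 genes summed to 2937 normalised reads in Col-0 and 2699 in lbd16-2, a ratio of 0.919 (0.881 to 0.959). The 4 genes other than LBD16 summed to 1956 and 2181, a ratio of 1.12 (1.06 to 1.17). Before culture LBD16 alone gave 78.9% (62.7% to 90.4%) of the 38 reads of the 5 genes in Col-0 and 72.5% (58.3% to 84.1%) of the 51 in lbd16-2, with exact binomial intervals.

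**Figure D3:**
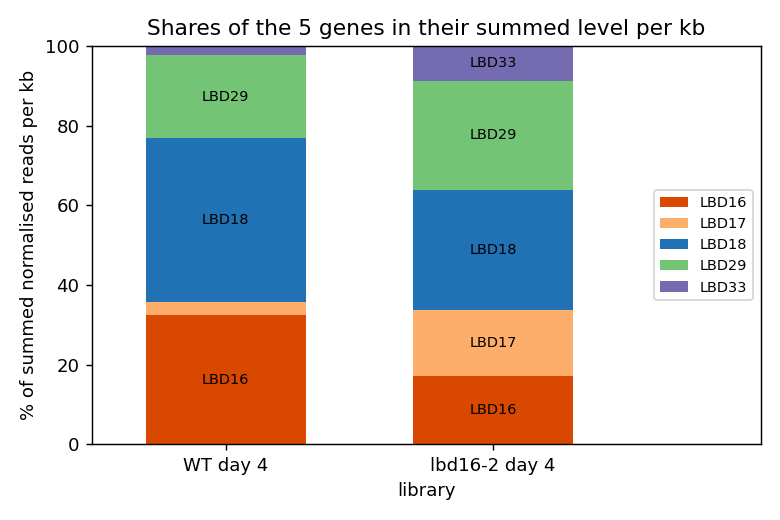
Share of each of the 5 genes in their summed normalised reads per kilobase of transcript at day 4 (vertical axis, percent), with 1 bar a library. The LBD16 part is 32.4% in Col-0 wild type (WT) and 17.2% in lbd16-2, and the LBD17 part 3.21% and 16.7%.

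The authors' deposited table gives a false discovery rate (FDR) for each fold, and 2 of the 5 genes were under 0.05 in Col-0 and 2 in lbd16-2. Such an FDR was given for 11.5% of the Col-0 list and 8.97% of the lbd16-2 list. For LBD29 the authors' deposited table gives 0.0241 in Col-0 and 0.0146 in lbd16-2, both under the limit. For LBD18 the authors' deposited table gives 0.00493 and 0.0551, and for LBD17 0.552 and 0.0334, so each was under the limit in 1 genotype. The difference between genotypes was not tested there. For LBD16 the authors' deposited table gives 0.0947 and 0.579, and for LBD33 0.988 and 0.369. The sources used here do not say how an FDR was obtained without replicates.

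**Figure D4:**
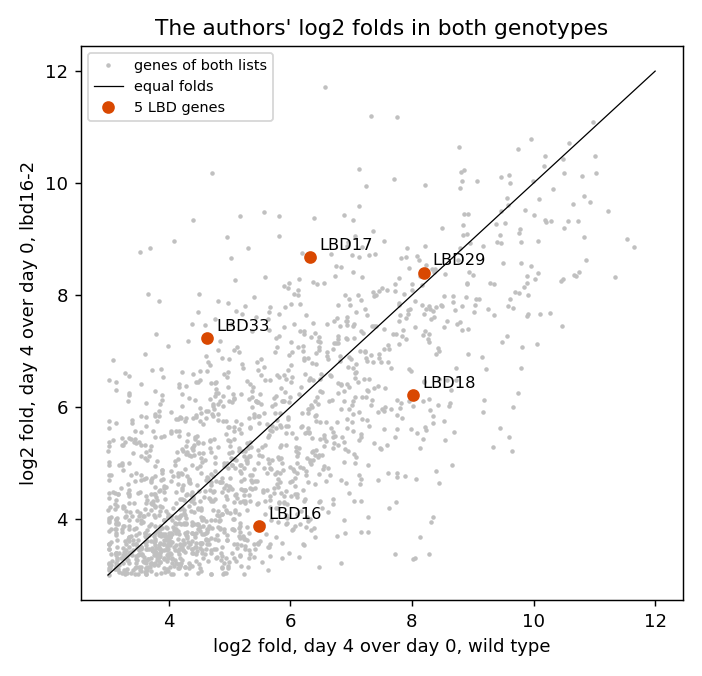
The authors' deposited log2 folds from day 0 to day 4 in Col-0 wild type (horizontal axis) and lbd16-2 (vertical axis), on the log2(normalised reads + 1) scale, with 1 grey point for each of the 1657 genes of both lists and the 5 LBD genes in orange. LBD17 (6.33 and 8.68) and LBD33 (4.63 and 7.23) lie above the line of equal folds, LBD29 next to it, and LBD16 (5.49 and 3.88) and LBD18 (8.01 and 6.22) below it.

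LBD16 and LBD17 are next to each other on chromosome 2 and point towards each other, with 3363 bases between their ends. LBD18 lies 5136 bases from LBD19, on the opposite strand and with their start sides facing. The 2 annotated genes on each side of each of the 5 gave 16 distinct genes outside the set. Of these 16, 3 were listed, LBD19, RBE and GPAT7, and all 3 were in both lists. The lists hold 8.91% (Col-0) and 9.18% (lbd16-2) of the genes tested. The 16 include tRNA, snoRNA and other non-coding genes, and it is not known whether those were among the genes tested. LBD19 had 0 reads before culture, and 243 normalised reads in Col-0 and 212 in lbd16-2 after it (0.872, 0.750 to 1.01). RBE, a zinc finger gene known from petal development that lies 1484 bases from LBD33, also had 0 reads before culture. It had 20.5 normalised reads in Col-0 and 42.2 in lbd16-2 after culture, a ratio of 2.06 (1.32 to 3.29), so it was higher in lbd16-2 as LBD33 was. GPAT7, an acyltransferase gene 3579 bases away on the other side of LBD33, had 80.0 and 70.7 after culture (0.885, 0.678 to 1.15).

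LBD17 and LBD29, the closest pair in coding sequence, were also the closest in the 300 bases from 250 before to 50 after the annotated start. They shared 72.8% identity over 257 aligned bases there and a run of 15 identical bases, where the other 9 pairs had 51.4% to 65.0% and longest runs of 8 to 13. Both windows are shown for this similarity, between genes whose ratios after culture were 5.17 and 1.31. Capitals mark the shared run, and the sequences are RefSeq's, TAIR10.1.
LBD17, chr2:17669787-17670086, minus strand: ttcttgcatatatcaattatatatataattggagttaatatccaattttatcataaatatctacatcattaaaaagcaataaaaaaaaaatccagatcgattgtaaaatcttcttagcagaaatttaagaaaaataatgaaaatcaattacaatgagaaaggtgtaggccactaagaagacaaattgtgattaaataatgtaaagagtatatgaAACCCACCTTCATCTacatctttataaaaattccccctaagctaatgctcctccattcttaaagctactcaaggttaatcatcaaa
LBD29, chr3:21549523-21549822, minus strand: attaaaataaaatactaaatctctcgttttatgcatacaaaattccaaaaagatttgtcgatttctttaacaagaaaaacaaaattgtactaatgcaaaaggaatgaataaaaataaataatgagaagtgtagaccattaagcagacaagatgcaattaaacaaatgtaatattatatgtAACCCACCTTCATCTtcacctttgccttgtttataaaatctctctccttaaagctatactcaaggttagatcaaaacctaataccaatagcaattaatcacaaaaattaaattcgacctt
The auxin response motifs TGTCTC and TGTCGG, known to be bound by auxin response factors, were searched on both strands of the 5 windows. LBD33 held a TGTCTC, starting at base 237 of its window, and the other 4 held neither motif. Of 27438 windows of protein-coding genes, 18.7% held at least 1 of them. The looser form TGTCNN, which includes both motifs, was found in all 5 windows and in 81.3% of all. A match in these letters is not a binding site, and sequence outside the windows was not searched.

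Of 42 annotated LBD genes, 14 (33.3%) were in the Col-0 list and 14 in the lbd16-2 list, 13 of them in both. Without the 5 genes described above, which were picked from listed genes, there were 9 of 37 (24.3%) in each list. Of all genes tested, the lists hold 8.91% in Col-0 and 9.18% in lbd16-2. Of the 10 further listed relatives, 9 had levels in all 4 libraries. Among these 9, 7 were lower in lbd16-2 after culture, beside 58.3% of the 2175 genes and 50.5% of the 1657 genes of both lists. The interval was wholly below 1 for 5 of the 9 and for 43.0% of the 2175 genes, and wholly above 1 for LBD41 and for 31.4% of the 2175, while the intervals of LBD3, LBD19 and LBD40 held 1. The median log2 ratio of the 9 was -0.42, beside 0.39 for the 5 genes and -0.18 for the 2175 genes. The 9 include LBD15 of the Col-0 list alone (-1.61) but not LBD4 of the lbd16-2 list alone. All 5 genes are in both lists, so the list limit enters this contrast.

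LBD12, LBD13 and LBD15 were over 2-fold lower in lbd16-2 after culture. LBD15, in the Col-0 list alone, went from 6.98 to 405 normalised reads in Col-0 and from 19.5 to 133 in lbd16-2, and its ratio after culture was 0.328 (0.279 to 0.383). LBD12 (named ASL5 in the annotation) had 334 in Col-0 and 129.6 in lbd16-2 (0.388, 0.329 to 0.457), and LBD13 had 130.2 and 45.8 (0.352, 0.266 to 0.461). LBD31 (0.701, 0.565 to 0.868) and LBD36 (0.748, 0.625 to 0.895) were lower by less. LBD41, known as a low-oxygen response gene, had 1911 in Col-0 and 2801 in lbd16-2 (1.47, 1.40 to 1.54). LBD4, a gene of the vascular cambium, was in the lbd16-2 list alone and stood 14.4-fold (12.2 to 17.2) over its starting level there, from 131 to 1885 normalised reads. Its Col-0 levels were not analysed here.

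Of 12 genes placed upstream of the LBD genes, 2 (16.7%) were in the Col-0 list and 1 (8.33%) in the lbd16-2 list, beside 8.91% and 9.18% of the genes tested. WOX11, a homeobox gene that activates LBD16 and LBD29 in leaf explants forming roots, was in both. After culture it had 1049 normalised reads in Col-0 and 6037 in lbd16-2, a ratio of 5.76 (5.45 to 6.08). It was thus higher in lbd16-2, as LBD29 was, while LBD16 was lower. ARF5, an auxin response factor, was in the Col-0 list alone, 10.5-fold (9.69 to 11.3) over its starting level in Col-0 and 6.86-fold (6.36 to 7.40) in lbd16-2. ARF7, ARF19, TIR1, IAA14, IAA28, IAA3, WOX12, bZIP59, JMJ30 and ATXR2 were in none of the lists. The 12 were chosen with earlier results of these data known.

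Of 7 genes placed downstream, 4 (57.1%) were in both lists, which hold 8.91% (Col-0) and 9.18% (lbd16-2) of the genes tested. The 7 were chosen with earlier results of these data known, so their share is not an independent result. PUCHI, which limits cell proliferation in lateral root primordia, had 1138 normalised reads in Col-0 and 1196 in lbd16-2 after culture (1.05, 0.984 to 1.12). The expansin genes EXPA14 and EXPA17, targets of LBD18 in the root, lay on opposite sides. EXPA14 had 773 in Col-0 and 314 in lbd16-2 (0.407, 0.366 to 0.452), whereas EXPA17 had 279 and 325 (1.16, 1.02 to 1.33). PGLR (AT5G14650), a pectin lyase-like gene, had 2925 and 1760.3 (0.602, 0.574 to 0.631). E2FA, LAX3 and CRF2 were in none of the lists.

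Profiles over the 4 libraries were compared by the Euclidean distance between log2(normalised reads + 1) levels centred on each gene's mean, a description that rests on 4 values a gene. Closest to LBD16, among genes with a mean day 4 level of at least 100 normalised reads, were AT5G40030, a protein kinase gene (distance 0.222), DSEL, a lipase gene (0.226), AT1G75580, a SAUR-like gene (0.248), AT1G80130 (0.343) and PR5K (0.391). Closest to LBD17 were GSTU12 (0.370), DIN2 (0.404) and AT5G17970 (0.481). Closest to LBD18 were AT1G74460 (0.151), GSTU22 (0.284) and AT5G19110 (0.378). WOX7 (0.175), EXPA17 (0.188) and UMAMIT29 (0.234) were closest to LBD29. For LBD33, with a limit of 20 normalised reads, these were WOX14 (0.417), AT3G22240 (0.505) and SLAH2 (0.528). None of the genes closest to any of the 5 was another of the 5. LBD33, whose mean day 4 level lay below 100, could not appear beside LBD16, LBD17, LBD18 or LBD29.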

How the data were processed

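Sequencing libraries from 4 groups were used. The submitters' processing notes name the TAIR10 build and the tools FastQC, Trim Galore, STAR, Cufflinks and DESeq, without versions. Whether counting used strand is not given in these sources. The authors deposited lists of increased genes with log2 levels, log2 fold changes, p-values and FDR values, and the linear ratio of folds between genotypes. From the values, not from a header, a level is log2(reads divided by 1 size factor per library, plus 1): undoing this gave whole numbers of reads for 100% of levels, with a tolerance of 0.001. The number of genes tested was taken as the number that, times p and divided by FDR, gave whole ranks most often. It did so for 53.1% (Col-0) and 54.4% (lbd16-2) of the listed genes with an FDR under 1.

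Ratios of 2 libraries have exact binomial 95% intervals. Log2 ratios, log2 folds and differences of log2 folds have normal intervals with 0.5 reads added. A fold against 0 reads is a lower bound against 3 reads. Intervals cover counting error only, and total depth is unknown, since the tables hold listed genes. The interval steps were tested on simulated data.

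Names, lengths and sequences come from RefSeq's TAIR10.1, where all 2773 listed identifiers were found. The deposited files hold no coordinates. Identities come from global alignments (Biopython 1.88). Coding sequences stood in for proteins, whose sequences were not used here. The family was every gene annotated as LBD, ASL, LOB, AS2 or JLO or as a LOB domain protein. Named by rule were the 5 genes, every listed LBD, upstream and downstream gene, the listed genes among 2 neighbours on each side, and the closest profiles (5 for LBD16, 3 for each of the others). Members, lists and comparisons were chosen with earlier results of these data known. Alternatives were pseudocounts of 1 and 5, 2 scalings on listed genes, filters on the day 4 level, a log2 fold limit of 4, the authors' FDR and a looser motif. The shares over genes of both lists, the shares of genes by interval or at or below a member, the sequence identities and the comparison of next-door genes were added after the values were seen.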

Additional observations from a re-analysis of the deposited data

How the results depend on the processing

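The 5 day 4 ratios stayed inside their counting intervals under both other scalings and with 5 normalised reads added. The 2 scalings use listed genes, all chosen for a higher day 4 level, so by construction they take that increase as the zero point and lower every fold. Centred on the genes of both lists, log2 folds in wild type and lbd16-2 were -0.57 and -2.24 for LBD16, 1.74 and 3.65 for LBD17, 2.11 and 0.14 for LBD18, 2.79 and 2.73 for LBD29, and -0.79 and 2.19 for LBD33. With the same sum of reads they were 0.59 and -0.38 for LBD16, 2.90 and 5.51 for LBD17, 3.27 and 2.00 for LBD18, 3.95 and 4.60 for LBD29, and 0.37 and 4.05 for LBD33. With 5 normalised reads added, the wild-type log2 fold of LBD29, from 1 read at day 0, was 6.46 in place of 8.89. With the authors' FDR under 0.05 in place of the fold limit, 2 of the 5 genes remained in wild type and 2 in lbd16-2. With TGTCNN in place of TGTCTC and TGTCGG, 5 windows held a motif in place of 1. Under the alternatives run, the other 68 values stayed within their counting interval or within 1.5 times. No paired analysis was possible because each group had 1 library, and no library could be left out for the same reason. Depth limits LBD17, LBD29 and LBD33 most, since 0 or 1 read at day 0 leaves their folds with wide intervals.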

Other observations

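LBD16 and LBD17 were chosen for this comparison after their values were seen. Among 324 pairs of next-door protein-coding genes with levels in all 4 libraries for both genes, the log2 ratios of lbd16-2 to wild type at day 4 were apart by a median of 0.73. LBD16 and LBD17 were 3.29 apart, in opposite directions, and 6 of the 324 pairs, this one included, were at least as far apart. LBD18 and LBD19, which are also next to each other and had levels in all 4 libraries, were 0.27 apart, and 258 pairs were at least as far apart as they were. The cause of the gap between LBD16 and LBD17 was not tested.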
